A study of Mus musculus with 6 samples.

Results

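The 42 genes described here encode the lysosome and the machinery that controls its biogenesis in fibroblasts taken from mouse embryos and then immortalized (MEFs). They were chosen by name, from a list of lysosomal hydrolases, membrane proteins, proton pump subunits and regulators that include targets of the transcription factor TFEB. All 42 were found by symbol among the 53762 genes counted, and all 42 passed the filter on low counts that left 15223 genes for testing. RNA sequencing compared 3 libraries from PME-1 knockout cells (KO) with 3 from wild-type cells (WT), both collected from high-glucose DMEM 24 hours after they were plated. The titles call all 3 KO libraries PME-1 KO, while the genotype fields of KO 2 and KO 3 carry other numbers after PME. How the gene was disrupted, whether the KO line is a clone and whether replicates are separate cultures is not in the labels. The p-values therefore speak only of the spread among these 6 libraries, which may be technical.

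The lysosome is the acidic compartment in which proteins, glycans and lipids are broken down. Many of its genes share a CLEAR element, an E-box sequence bound by TFEB and its relatives TFE3 and MITF. When nutrients are plentiful, the kinase complex mTORC1 is recruited to the lysosome by Rag GTPases and phosphorylates TFEB, which keeps it in the cytoplasm. Phosphatases that remove these phosphates allow it into the nucleus. Protein phosphatase 2A (PP2A) is one of the phosphatases reported to act on TFEB, and PME-1, encoded by Ppme1, removes a methyl group from the catalytic subunit of PP2A. Phosphorylation and location of TFEB were not measured here. The comparison asks which lysosomal transcripts differ between cells without and with PME-1.

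Levels are given as CPM, read counts divided by the TMM-scaled library size, with mean ± SD over n = 3 libraries a group. Ppme1 was at 705, 636 and 644 counts in KO 1, KO 2 and KO 3, against 2828, 3492 and 3774 counts in WT 1, WT 2 and WT 3, so the targeted transcript was reduced in every KO library. Total counts ranged from 34450993 to 43000426 in KO and from 38155189 to 44116310 in WT libraries, and a floor of 3 counts was 0.0689 to 0.0881 CPM. Libraries KO 1 and WT 1 stood apart from the others of their groups: pairs with KO 1 differed with a chi-square of 118 and 136.83 per degree of freedom and pairs with WT 1 with 115.16 and 128, while KO 2 and KO 3 differed by 13.14 and WT 2 and WT 3 by 12.73. The counts by role and the main genes are therefore also given without KO 1 and WT 1. The groups also differed in sex-linked transcripts. Xist was at 12, 11 and 4 counts in KO, against 17666, 16003 and 18859 in WT, and the Y-linked Ddx3y was at 1988 to 3061 counts in KO and 0 in every WT library. Knockout and sex of the cells therefore cannot be told apart. Of 9 fibroblast markers all were detected, while Adgre1, Itgam, Tyrobp, Ocstamp, Dcstamp and Calcr, 6 of 12 markers of macrophages and osteoclasts, which are rich in lysosomes, were at 0 counts in all libraries. The summed level of those 12 markers was 6.38 to 8.87 CPM in KO and 6.36 to 7.69 CPM in WT, most of it from Cd14. Among 6 melanocyte markers, Tyr, Tyrp1, Dct, Mlana and Sox10 were at 0. The summed level of 6 epithelial markers was 59.7 to 115 CPM in KO, highest in KO 1, and 2.33 to 2.66 CPM in WT. In KO nearly all of it came from Krt18 (75.5 CPM in KO and 1.39 CPM in WT). Krt8 was also higher in every KO library (3.44 CPM in KO and 0.229 CPM in WT). Both were called higher by edgeR (adjusted p = 0.000753 for Krt18 and 0.0109 for Krt8). Krt5 and Krt14 were at 0. Epcam was at 0.675 CPM in KO and 0.641 CPM in WT, and Cdh1 at 0.103 CPM in KO and 0.267 CPM in WT. The summed level of the 9 fibroblast markers was 11999 to 12826 CPM in KO and 15206 to 18200 CPM in WT. Col1a1, Col1a2 and Pdgfrb (87.6 CPM in KO and 211 CPM in WT) were lower in every KO library. Thy1 (6.52 CPM in KO and 2.31 CPM in WT) and Dcn (30.3 CPM in KO and 6.56 CPM in WT) were higher in every KO library. Of the 9, edgeR called 2 lower, Col1a1 (adjusted p = 0.0209) and Pdgfrb (0.0233), and 0 higher. The part of these marker differences in the results below was not tested. In a bulk sample, fewer cells of a type and less RNA per cell cannot be told apart.

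RefSeq promoter sequences (GRCm38.p6, from 250 bases before to 50 after a gene's start) were in the table used for 36 of the 42 genes. They were searched for TCACGTGA, the E-box with the flanks typical of CLEAR elements, which reads the same on both strands. It was present in the promoters of Mcoln1, Ctsd, Ctsa, Atp6v0d1, Atp6v1a and Gla, 6 of 36 genes (16.7%), against 304 of 27025 genes with a promoter (1.12%). The list was chosen to include targets of TFEB, so a share above that of all genes is built into it and is not a result. These 6 stretches are shown first, because their genes are followed below as a set. A gene with more than 1 promoter sequence counted if any of them held the motif. Ctsa had 2 such sequences, and the stretch shown is from 1 of them. The motif is in capitals, and each run reads 5′ to 3′ on the gene's strand.
Mcoln1, chr8:3500461-3500492, plus strand: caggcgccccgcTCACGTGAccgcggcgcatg
Ctsd, chr7:142387907-142387938, minus strand: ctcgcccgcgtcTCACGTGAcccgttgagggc
Ctsa, chr2:164833748-164833796, plus strand: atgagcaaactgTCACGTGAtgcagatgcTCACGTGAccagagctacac
Atp6v0d1, chr8:105566049-105566080, minus strand: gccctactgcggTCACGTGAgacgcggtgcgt
Atp6v1a, chr16:44139372-44139403, minus strand: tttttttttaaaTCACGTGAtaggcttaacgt
Gla, chrX:134601181-134601245, minus strand: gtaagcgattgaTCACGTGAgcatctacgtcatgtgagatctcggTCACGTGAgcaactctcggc

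The shorter core CACGTG, which lies inside TCACGTGA and also reads the same on both strands, was present for 14 of 36 genes (38.9%), against 2187 of 27025 (8.09%). The choice of the list limits the reading of these shares in the same way. Of the 6 genes with TCACGTGA, 0 passed the test between KO and WT described below. Of the 8 with CACGTG but not TCACGTGA, 1 passed, Lamp1. Of 22 genes whose promoter held no CACGTG, 3 passed: Tfeb, Hexa and Rragd. Ctsh, which also passed, had no promoter in the table used. Lamp1, the most abundant lysosomal membrane protein gene of the list, held 4 copies within 76 bases, shown in capitals.
Lamp1, chr8:13159088-13159163, plus strand: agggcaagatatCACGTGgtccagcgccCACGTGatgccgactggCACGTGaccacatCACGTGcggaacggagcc
A match describes letters in a window and not binding.

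Of the 42 genes 5 passed the test, 2 higher and 3 lower in KO cells. The Rag GTPase gene Rragd and the cathepsin gene Ctsh rose, and Tfeb, Lamp1 and Hexa fell (edgeR quasi-likelihood test, Benjamini-Hochberg adjusted p under 0.05 over all genes). Over all 15223 genes 3.55% were called higher and 3.86% lower, 7.4% in either direction, and the count of 5 is to be read against that share. Before adjustment 14 members, those 5 included, had a p under 0.05, as had 3378 of all genes (22.2%). The median log2 fold change (KO over WT) was -0.27 over the members and 0.01 over all genes tested, and 30 of 42 members had a negative value, against 48.9% of all genes. DESeq2 called 3 higher and 8 lower, where 7.85% and 7.96% of all genes were called, 15.8% in all. Limma-voom called 1 higher and 4 lower, against 3.72% and 4.02% of all genes, 7.74% in all. Without KO 1 and WT 1 together, 3 were called higher and 31 lower, but in that comparison 23.3% of all genes were called higher and 24.6% lower, 48.0% in all.

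**Figure D1:**
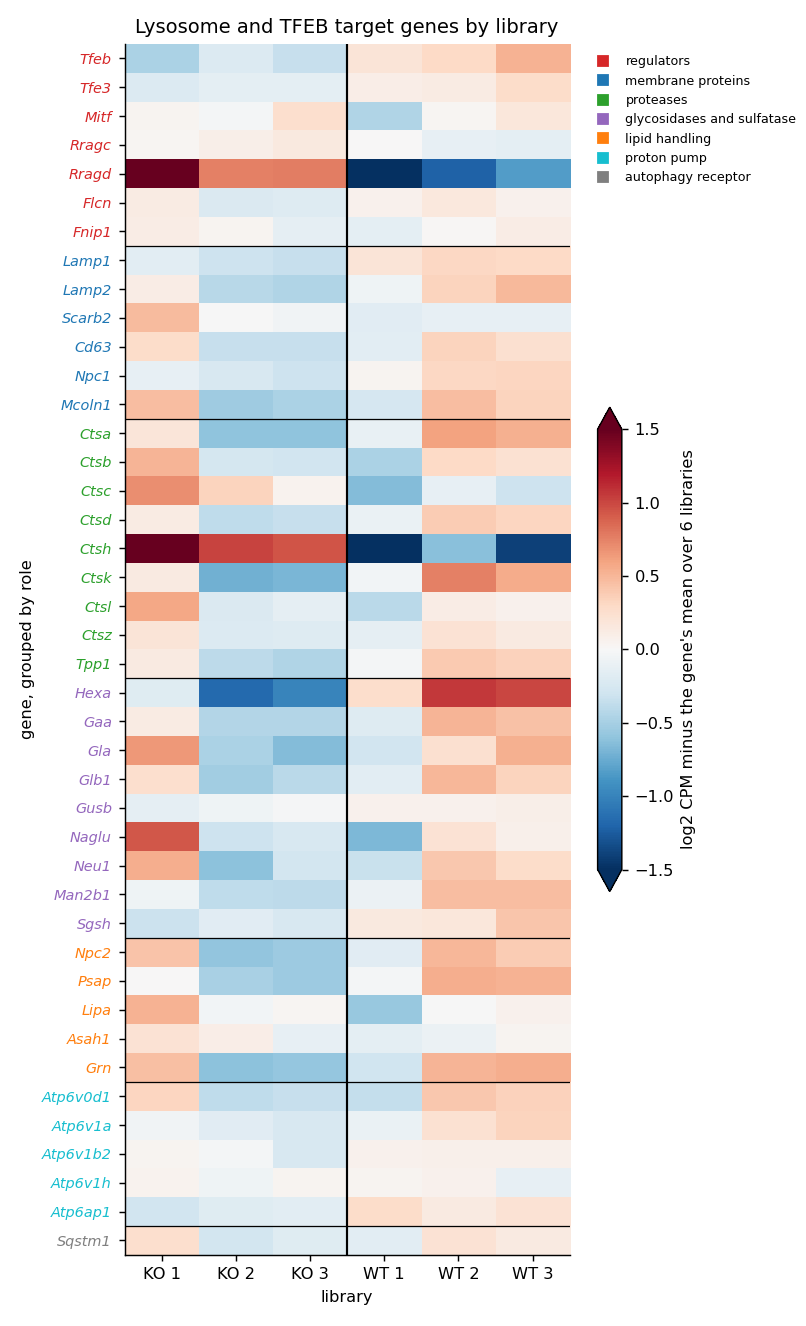
Level of each of the 42 genes (rows, coloured by role) in each library (columns), as log2 CPM minus the gene's mean over the 6 libraries. KO 2 and KO 3 are below WT 2 and WT 3 for most genes, while KO 1 and WT 1 show the opposite order for many of them. Rragd and Ctsh are higher, and Tfeb, Lamp1 and Hexa lower, in every KO library.

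Among the transcription factors, Tfeb fell 1.6-fold, and Tfe3 and Mitf did not pass. Tfeb (chromosome 17, from 47737030, GENCODE M21 on GRCm38) was at 12.9, 15.6 and 14.1 CPM in KO 1, KO 2 and KO 3, against 20.5, 22.0 and 25.7 CPM in WT 1, WT 2 and WT 3. The groups did not overlap, and the KO libraries lay within 3 CPM of each other. Its mean was 14.2 ± 1.32 CPM in KO and 22.8 ± 2.68 CPM in WT (log2 fold change -0.68, SE 0.15, adjusted p = 0.0442). Tfe3, which regulates an overlapping set of lysosomal genes, was at 69.1, 71.5 and 71.7 CPM in KO 1, KO 2 and KO 3, against 85.2, 86.4 and 95.8 CPM in WT 1, WT 2 and WT 3. The groups did not overlap here either, but the difference was not past the threshold (log2 fold change -0.33, SE 0.10, adjusted p = 0.0913; DESeq2 adjusted p = 0.013). Tfe3 is on the X chromosome, where the groups also differ in Xist. Mitf, the family member known from melanocytes and osteoclasts, was at 8.23, 7.88 and 9.55 CPM in KO 1, KO 2 and KO 3, against 5.85, 8.20 and 9.0 CPM in WT 1, WT 2 and WT 3. The groups overlapped (log2 fold change 0.15, SE 0.22, adjusted p = 0.749). Tfec, the remaining relative, had 0 counts in all 6 libraries. Divided by exon length, Tfe3 was the most abundant of the family at 7.64 CPM per kb in KO and 9.63 in WT, followed by Tfeb at 2.51 CPM per kb in KO and 4.01 in WT and Mitf at 1.38 CPM per kb in KO and 1.24 in WT.

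The call on Tfeb rested on several libraries. It held without WT 1 (adjusted p = 0.0429) and without KO 1 and WT 1 together (0.0012, log2 fold change -0.69), and was lost without KO 1 (0.0751), KO 2 (0.107), KO 3 (0.158), WT 2 (0.144) or WT 3 (0.179), all by edgeR. The log2 fold change stayed between -0.74 (without WT 1 or KO 2) and -0.58 (without WT 3) in those settings. With upper-quartile factors, library size alone or no filter on low counts, the adjusted p was 0.0578, 0.0642 and 0.0554.

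Rag GTPases bind mTORC1 as heterodimers of RagA or RagB with RagC or RagD, and RagC and RagD are the partners that present TFEB to the kinase. Rragd (chromosome 4, from 32983037) was at 9.13, 3.24 and 3.29 CPM in KO 1, KO 2 and KO 3, against 0.583, 0.832 and 1.08 CPM in WT 1, WT 2 and WT 3. Every KO library was above every WT library, and KO 1 stood far above KO 2 and KO 3. The rise was 6.25-fold (log2 fold change 2.64, SE 0.53, adjusted p = 0.0322), with 353, 138 and 112 counts in KO, against 21, 36 and 47 in WT. It was 3.90-fold without KO 1 (adjusted p = 0.0361) and 3.40-fold without KO 1 and WT 1 together (0.00188). The call was lost without KO 2 (0.0678), KO 3 (0.0684), WT 1 (0.0712), WT 2 (0.129) or WT 3 (0.105), and with limma-voom (0.0655).

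The paralog Rragc was at 123, 128 and 133 CPM in KO 1, KO 2 and KO 3, against 121, 111 and 108 CPM in WT 1, WT 2 and WT 3. The groups were separated by a small gap, and the difference was not past the threshold (log2 fold change 0.18, SE 0.10, adjusted p = 0.339). Rragc remained far the more abundant of the pair, at 38.4 CPM per kb in KO and 33.9 in WT, against 1.01 CPM per kb in KO and 0.161 in WT for Rragd. Of the other 2 Rag genes, taken from the list of mTORC1 genes below, Rragb rose 2.04-fold (log2 fold change 1.03, SE 0.20, adjusted p = 0.0302). It was at 9.18, 10.8 and 13.3 CPM in KO 1, KO 2 and KO 3, against 5.24, 5.80 and 5.26 CPM in WT 1, WT 2 and WT 3, with no overlap between the groups. Rragb is on the X chromosome, and the part of the sex difference between the groups in this result was not tested. Its call was lost without KO 2 (0.104), KO 3 (0.123), WT 1 (0.0543), WT 2 (0.109) or WT 3 (0.133), adjusted p by edgeR in each case. Rraga was at 72.1, 81.1 and 72.8 CPM in KO 1, KO 2 and KO 3, against 63.2, 62.3 and 57.8 CPM in WT 1, WT 2 and WT 3, without overlap and not past the threshold (log2 fold change 0.30, SE 0.10, adjusted p = 0.135; DESeq2 adjusted p = 0.0379, and 0.00298 by edgeR without KO 1 and WT 1).

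Folliculin and its partner FNIP1 act on RagC and RagD as a GTPase-activating complex. Flcn was at 53.4, 42.1 and 43.0 CPM in KO 1, KO 2 and KO 3, against 51.1, 54.7 and 51.1 CPM in WT 1, WT 2 and WT 3, where KO 1 lay with the WT libraries (log2 fold change -0.18, SE 0.13, adjusted p = 0.471). Fnip1 was at 73.8, 70.0 and 62.3 CPM in KO 1, KO 2 and KO 3, against 61.5, 69.2 and 73.7 CPM in WT 1, WT 2 and WT 3, with overlapping groups (log2 fold change 0.01, SE 0.12, adjusted p = 0.966).

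**Figure D2:**
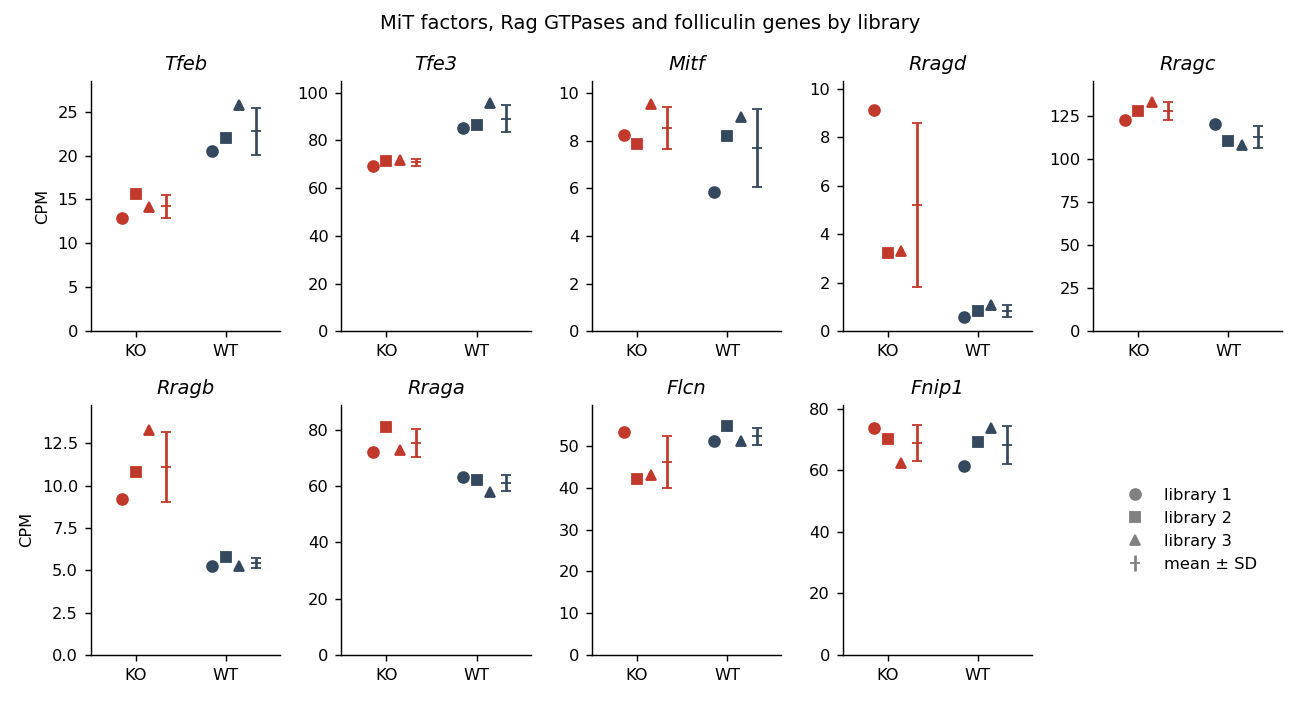
CPM of the MiT factor genes Tfeb, Tfe3 and Mitf, the 4 Rag GTPase genes, Flcn and Fnip1 in each library, with the mean and SD of each group (n = 3) beside the points; each panel has its own axis starting at 0. KO points are below WT points for Tfeb and Tfe3 and above them for the 4 Rag genes, with KO 1 the highest for Rragd.

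Of 6 membrane proteins, Lamp1 fell and 5 did not pass. Lamp1, a heavily glycosylated protein that lines the lysosomal membrane, was at 817, 735 and 718 CPM in KO 1, KO 2 and KO 3, against 1039.6, 1125 and 1123 CPM in WT 1, WT 2 and WT 3. All KO libraries were below all WT libraries, and the fall was 1.45-fold (log2 fold change -0.53, SE 0.11, adjusted p = 0.0361). The call held without KO 1 (0.0261) or WT 1 (0.0444) and was lost without KO 2 (0.157), KO 3 (0.171), WT 2 (0.161) or WT 3 (0.164), and with upper-quartile factors (0.0682) or library size alone (0.0818), by edgeR. Of its exon bases 9.31% are shared with Grtp1 on the opposite strand, a gene at 6.56 CPM in KO and 6.12 CPM in WT.

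Its paralog Lamp2, which also serves as the receptor of chaperone-mediated autophagy and is X-linked, was at 390.2, 272 and 264 CPM in KO 1, KO 2 and KO 3, against 347, 457 and 507 CPM in WT 1, WT 2 and WT 3. KO 1 lay above WT 1, so the groups overlapped (log2 fold change -0.50, SE 0.21, adjusted p = 0.225). Npc1, the cholesterol exporter of the lysosomal membrane, was at 46.3, 42.6 and 40.5 CPM in KO 1, KO 2 and KO 3, against 51.5, 62.2 and 63.0 CPM in WT 1, WT 2 and WT 3, with no overlap between groups (log2 fold change -0.45, SE 0.12, adjusted p = 0.0807; DESeq2 adjusted p = 0.0185). Mcoln1, the calcium channel TRPML1 whose signal activates calcineurin towards TFEB, was at 64.8, 32.4 and 33.9 CPM in KO 1, KO 2 and KO 3, against 39.3, 64.6 and 59.0 CPM in WT 1, WT 2 and WT 3. KO 2 and KO 3 were the lowest libraries, while KO 1 was slightly above the highest WT library (log2 fold change -0.31, SE 0.32, adjusted p = 0.626). Cd63, a tetraspanin of late endosomes, was at 877, 571 and 573 CPM in KO 1, KO 2 and KO 3, against 654, 918 and 860.2 CPM in WT 1, WT 2 and WT 3, with KO 2 and KO 3 again the lowest (log2 fold change -0.27, SE 0.22, adjusted p = 0.539). Scarb2, which carries glucocerebrosidase to the lysosome, was at 74.7, 53.2 and 51.9 CPM in KO 1, KO 2 and KO 3, against 47.5, 49.4 and 49.2 CPM in WT 1, WT 2 and WT 3, where KO 1 stood above the other libraries (log2 fold change 0.30, SE 0.16, adjusted p = 0.337).

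Of 9 proteases, Ctsh rose and 8 did not pass. Cathepsin H is an aminopeptidase, and its gene (chromosome 9, from 90054152) was at 9.65, 6.10 and 5.84 CPM in KO 1, KO 2 and KO 3, against 0.999, 1.96 and 1.15 CPM in WT 1, WT 2 and WT 3. The KO libraries were all above the WT libraries, a 5.24-fold rise (log2 fold change 2.39, SE 0.37, adjusted p = 0.0144) and 3.83-fold without KO 1 and WT 1 (0.000271). It was not called without KO 2 (0.0537), KO 3 (0.0505) or WT 3 (0.0789) by edgeR. Per length the Ctsh level stayed low, at 1.6 CPM per kb in KO and 0.304 in WT. Ctsc, the gene of cathepsin C, which activates granule proteases of immune cells, was at 15.1, 11.8 and 9.72 CPM in KO 1, KO 2 and KO 3, against 5.99, 8.62 and 7.55 CPM in WT 1, WT 2 and WT 3, without overlap (log2 fold change 0.73, SE 0.24, adjusted p = 0.128; DESeq2 adjusted p = 0.0361).

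The more abundant cathepsins showed another order. Ctsd, the main aspartic protease and the highest of the 9 per length at 190.1 CPM per kb in KO and 251 in WT, was at 551, 389.9 and 399 CPM in KO 1, KO 2 and KO 3, against 471, 661 and 635 CPM in WT 1, WT 2 and WT 3. KO 2 and KO 3 were the lowest libraries, and KO 1 was above WT 1 (log2 fold change -0.40, SE 0.20, adjusted p = 0.295). Ctsd shares 34.4% of its exon bases with Gm49369 on the same strand, a gene at 0 CPM in KO and WT. How reads in shared bases were counted is not given in the sources used here, which limits the Ctsd level. Ctsa, the protective protein of beta-galactosidase and neuraminidase, was at 294, 170.1 and 170.0 CPM in KO 1, KO 2 and KO 3, against 239.9, 393 and 375 CPM in WT 1, WT 2 and WT 3. KO 2 and KO 3 were far below WT 2 and WT 3, with KO 1 and WT 1 between them (log2 fold change -0.67, SE 0.28, adjusted p = 0.231). Ctsk, the collagen-degrading cathepsin of osteoclasts, was at 7.11, 3.94 and 4.02 CPM in KO 1, KO 2 and KO 3, against 6.27, 11.0 and 9.52 CPM in WT 1, WT 2 and WT 3 (log2 fold change -0.83, SE 0.33, adjusted p = 0.208). Ctsb, an abundant cysteine protease, was at 939, 552 and 540.1 CPM in KO 1, KO 2 and KO 3, against 476, 812 and 775 CPM in WT 1, WT 2 and WT 3, so that the group means were nearly equal although the libraries were spread widely (log2 fold change -0.02, SE 0.29, adjusted p = 0.975). Ctsb shares 12.8% of its exon bases with Fdft1 on the opposite strand, a gene at 171 CPM in KO and 165 CPM in WT, and the strand setting of the counting is not given in the sources used here. Ctsl, Ctsz and Tpp1 had log2 fold changes of 0.17, -0.14 and -0.46, with adjusted p-values of 0.75, 0.663 and 0.239 by edgeR.

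Of 9 genes for enzymes that cut sugar or sulfate groups, Hexa fell and 8 did not pass. Hexa encodes the alpha subunit of beta-hexosaminidase, which degrades the ganglioside GM2 and is deficient in Tay-Sachs disease. It was at 97.9, 49.3 and 56.0 CPM in KO 1, KO 2 and KO 3, against 133, 232 and 222 CPM in WT 1, WT 2 and WT 3. All KO libraries were below all WT libraries, with KO 2 and KO 3 lower than KO 1. The fall was 2.89-fold (log2 fold change -1.53, SE 0.32, adjusted p = 0.0389) and 4.32-fold without KO 1 and WT 1 together (1.58e-09). The call was lost without KO 2 (0.139), KO 3 (0.162), WT 2 (0.133) or WT 3 (0.144), and with upper-quartile factors (0.0589) or library size alone (0.0694).

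Hexa (chromosome 9, from 59539540 to 59565109, plus strand, GRCm38) was lower together with its neighbours. That it lies in a low stretch of this chromosome was known before its neighbours were looked at. The counts here therefore describe that stretch and are not a separate result. Of the 5 tested genes on each side, 5 of 10 were called lower, against 3.86% of all genes. Of these 10, 9 had a negative log2 fold change, and their median was -0.81. Those called were Adpgk (-0.75), Arih1 (-0.89), Parp6 (-1.12), Pkm (-0.87) and Senp8 (-0.87), given as log2 fold changes. Arih1 encodes a ubiquitin ligase and Pkm the glycolytic pyruvate kinase, which was at 2818 ± 108 CPM in KO and 5157 ± 30.8 CPM in WT. Within 2.5 Mb on either side of Hexa, 38 genes averaged 5 CPM or more over the libraries, and 25 of them fell while 0 rose, with a median of -0.87. The log2 fold change of Hexa was below that median, but the difference from it was not tested. Leaving out 1 library gave 4 lower neighbours without KO 1, 3 without KO 2, KO 3 or WT 2, 5 without WT 1 and 2 without WT 3.

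The other 2 members on chromosome 9 lay outside such a stretch. Around Ctsh, 1 of 14 genes of that level was called lower and 2 higher (median -0.31), and around Glb1, 1 of 18 lower and 1 higher (median -0.07). Of Hexa's exon bases 12.8% are shared with Tmem202 on the opposite strand, which was at 0.514 CPM in KO and 0.601 CPM in WT.

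**Figure D3:**
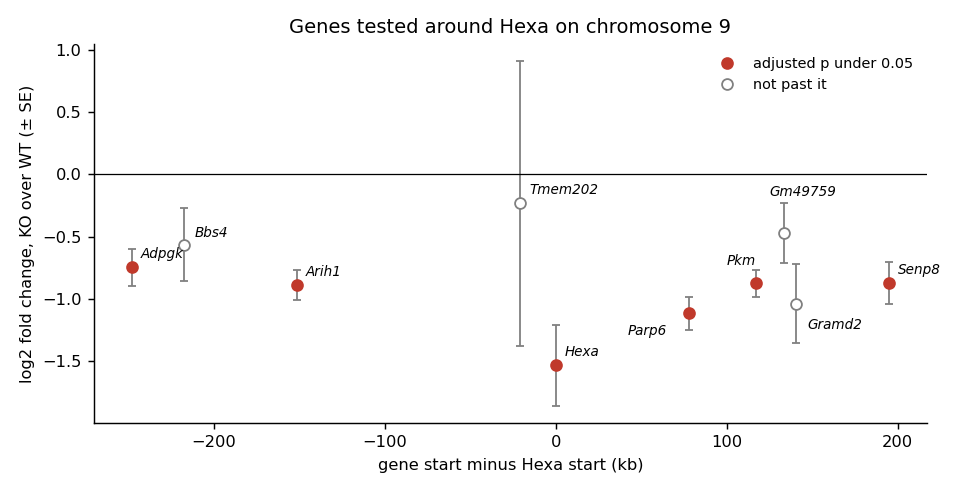
Log2 fold change (KO over WT, ± SE, edgeR) of Hexa and 9 of the 10 tested neighbours, by the distance of each gene's start from that of Hexa; filled points have an adjusted p under 0.05. Hexa is the lowest point, at -1.53, and the 9 neighbours shown are below 0.

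Among the remaining genes of this role, Gaa, the acid alpha-glucosidase that degrades glycogen, was at 211, 143 and 143 CPM in KO 1, KO 2 and KO 3, against 169.8, 275 and 262 CPM in WT 1, WT 2 and WT 3 (log2 fold change -0.51, SE 0.24, adjusted p = 0.277). Gla, the X-linked alpha-galactosidase, was at 54.6, 25.1 and 22.2 CPM in KO 1, KO 2 and KO 3, against 28.7, 41.1 and 50.8 CPM in WT 1, WT 2 and WT 3 (log2 fold change -0.24, SE 0.38, adjusted p = 0.771). In both genes KO 1 exceeded WT 1 while KO 2 and KO 3 were below WT 2 and WT 3. Naglu, which removes N-acetylglucosamine from heparan sulfate, was at 31.2, 13.2 and 13.9 CPM in KO 1, KO 2 and KO 3, against 10.3, 19.0 and 17.2 CPM in WT 1, WT 2 and WT 3, its highest value in KO 1 and its lowest in WT 1 (log2 fold change 0.33, SE 0.40, adjusted p = 0.692). Sgsh, the sulfamidase of the same pathway, was the one gene besides Hexa and Gusb in this role whose groups did not overlap, at 18.5, 20.7 and 19.8 CPM in KO 1, KO 2 and KO 3, against 25.8, 26.1 and 31.1 CPM in WT 1, WT 2 and WT 3 (log2 fold change -0.49, SE 0.13, adjusted p = 0.0766; DESeq2 adjusted p = 0.00833). Glb1, Gusb, Neu1 and Man2b1 had log2 fold changes of -0.43, -0.15, -0.18 and -0.57, with adjusted p-values from 0.123 to 0.807 by edgeR.

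Of the 5 genes for lipid and sphingolipid handling 0 passed in edgeR. Before adjustment 1 had a p under 0.05, DESeq2 called 1 and limma-voom 0. Psap, the precursor of the saposins that help degrade sphingolipids, was the most abundant transcript per length of all 42, at 307 CPM per kb in KO and 494 in WT. It was at 1059, 752 and 719 CPM in KO 1, KO 2 and KO 3, against 1028, 1533 and 1505 CPM in WT 1, WT 2 and WT 3. KO 2 and KO 3 were well below WT 2 and WT 3, and KO 1 and WT 1 were nearly equal (log2 fold change -0.68, SE 0.22, adjusted p = 0.127; DESeq2 adjusted p = 0.0376). Npc2, the soluble partner of NPC1, was at 320.0, 158 and 163 CPM in KO 1, KO 2 and KO 3, against 213, 338 and 309.9 CPM in WT 1, WT 2 and WT 3, with KO 1 again above WT 1 (log2 fold change -0.42, SE 0.32, adjusted p = 0.496). Grn, the progranulin gene, was at 371, 177 and 181 CPM in KO 1, KO 2 and KO 3, against 220.1, 385 and 395 CPM in WT 1, WT 2 and WT 3, in that same order (log2 fold change -0.46, SE 0.36, adjusted p = 0.516). Lipa, the acid lipase, and Asah1, the acid ceramidase, had log2 fold changes of 0.34 and 0.13 (adjusted p = 0.433 and 0.595).

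The vacuolar ATPase pumps protons into the lysosome, and 0 of its 5 genes passed in edgeR. Before adjustment 1 had a p under 0.05, and DESeq2 and limma-voom each called 1. Atp6ap1, an X-linked accessory subunit, was the nearest, at 174, 188 and 189.8 CPM in KO 1, KO 2 and KO 3, against 257, 233 and 248 CPM in WT 1, WT 2 and WT 3. The groups did not overlap (log2 fold change -0.42, SE 0.10, adjusted p = 0.0549; DESeq2 adjusted p = 0.000505 and limma-voom 0.0499). Atp6v0d1, which couples the membrane and cytosolic sectors, was at 122, 74.9 and 76.6 CPM in KO 1, KO 2 and KO 3, against 76.0, 129 and 124 CPM in WT 1, WT 2 and WT 3, a crossed order of libraries (log2 fold change -0.26, SE 0.27, adjusted p = 0.63). Atp6v1a, the catalytic subunit, was at 241, 220.4 and 211 CPM in KO 1, KO 2 and KO 3, against 232, 292 and 314 CPM in WT 1, WT 2 and WT 3 (log2 fold change -0.32, SE 0.14, adjusted p = 0.248). Atp6v1b2 and Atp6v1h had log2 fold changes of -0.15 and 0.01 (adjusted p = 0.483 and 0.963). Sqstm1, the autophagy receptor p62, was at 504, 350.0 and 373 CPM in KO 1, KO 2 and KO 3, against 379.6, 489 and 462 CPM in WT 1, WT 2 and WT 3 and did not pass (log2 fold change -0.12, SE 0.18, adjusted p = 0.765). It shares 17.3% of its exon bases with Mrnip on the opposite strand, at 3.34 CPM in KO and 3.27 CPM in WT.

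The 42 genes differed in how the libraries were ordered. In 23 of 42 (54.8%) KO 1 was above WT 1 while KO 2 and KO 3 were both below WT 2 and WT 3, an order that 20.3% of all genes tested showed. By role these were 7 of 9 proteases, 6 of 9 sugar and sulfate enzymes, 3 of 5 lipid genes, 3 of 6 membrane proteins, 2 of 5 pump subunits, Sqstm1 and, among the 7 regulators, Flcn. The reverse crossing was seen in 0 members and in 20.4% of all genes. Groups that did not overlap were seen in 9 members lower and 5 higher, against 15.4% and 14.6% of all genes. The 9 lower ones were Tfeb, Tfe3, Lamp1, Npc1, Hexa, Gusb, Sgsh, Atp6v1b2 and Atp6ap1, and the 5 higher ones Rragc, Rragd, Scarb2, Ctsc and Ctsh. The median difference over the members was 0.31 for KO 1 minus WT 1 and -0.52 for the mean of KO 2 and KO 3 minus that of WT 2 and WT 3, on the log2 CPM scale. Over all genes tested these medians were 0.01 and -0.00.

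Tfeb differed by a like amount in both comparisons, with -0.66 for KO 1 minus WT 1 and -0.68 for the other libraries. Tfe3 (-0.30 and -0.34) and Sgsh (-0.47 and -0.49) were similar in this. Others with like values in both were Gusb (-0.21 and -0.12) and Atp6v1h (0.01 and 0.02). The 6 genes with TCACGTGA in their promoters were all of the crossed kind, from 0.05 to 0.93 for KO 1 minus WT 1 and from -1.17 to -0.49 for the other libraries. Their medians were 0.49 and -0.82. Of the 8 genes with CACGTG but not TCACGTGA, 4 were of that kind, with medians of 0.29 and -0.45. Of 22 genes whose promoter held no CACGTG, 12 were of that kind, with medians of 0.25 and -0.52. The sets were not tested against each other. These differences between KO 1 and WT 1 have no replicate check.

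**Figure D4:**
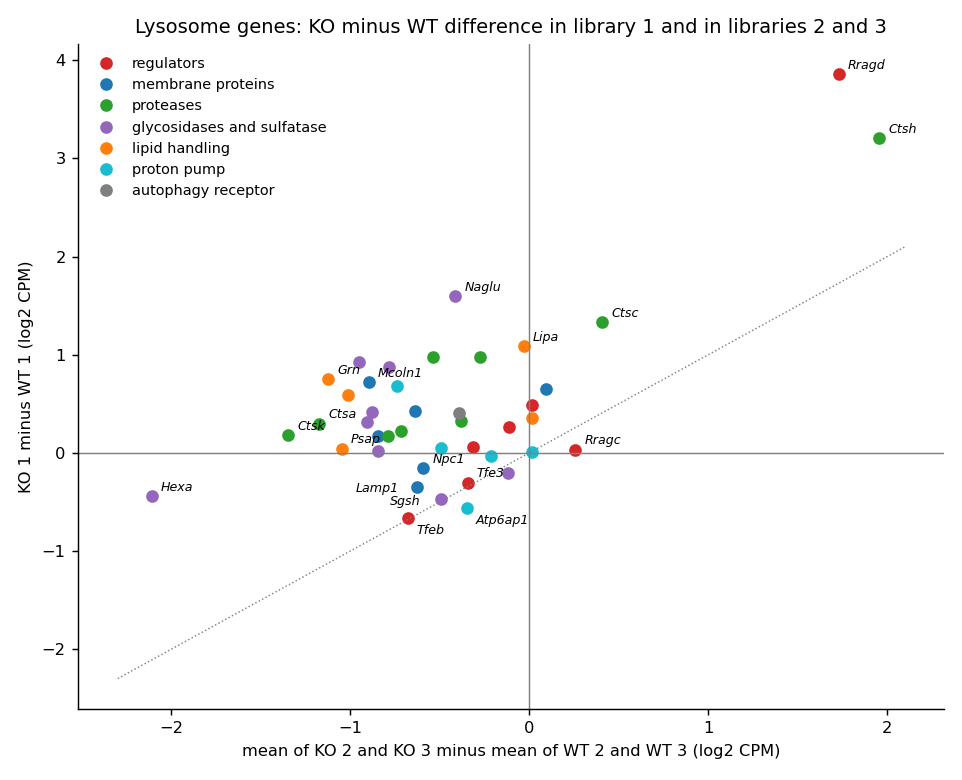
Log2 CPM difference of KO 1 minus WT 1 (vertical) against the mean of KO 2 and KO 3 minus the mean of WT 2 and WT 3 (horizontal) for the 42 genes, coloured by role; the dotted line marks equal differences. Most genes lie in the upper left, higher in KO 1 than in WT 1 and lower in the other KO libraries. Tfeb, Tfe3 and Sgsh lie near the line, as do others such as Gusb and Atp6v1h.

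Without KO 1 and WT 1, 31 members were called lower by edgeR, 3 higher (Rragc, Rragd and Ctsh) and 8 neither way. In that setting 24.6% of all genes were called lower and 23.3% higher, and the counts by role are to be read against those shares. By role, 2 of 7 regulators were higher and 3 lower, 1 of 9 proteases higher and 7 lower, and 5 of 6 membrane proteins, 8 of 9 sugar and sulfate enzymes, 3 of 5 lipid genes, 4 of 5 pump subunits and Sqstm1 lower. In that setting the knockout cannot be told apart from whatever else set KO 2 and KO 3 apart from WT 2 and WT 3. The largest falls were Hexa (-2.11), Ctsk (-1.36), Ctsa (-1.18), Grn (-1.13), Psap (-1.05) and Npc2 (-1.01) as log2 fold changes, with adjusted p-values of at most 0.000109. Gla (-0.96), Gaa (-0.91), Mcoln1 (-0.90), Lamp2 (-0.85), Atp6v0d1 (-0.74) and Ctsd (-0.72) were also called lower. The 8 not called were Mitf, Fnip1, Scarb2, Ctsc, Gusb, Lipa, Asah1 and Atp6v1h. Ctsl and Naglu changed sign between the comparisons. Ctsl was at 0.17 with all libraries and -0.27 without these 2 (adjusted p = 0.00126), and Naglu at 0.33 and -0.42 (0.0232). Lamp1 and Tfeb were called either way.

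**Figure D5:**
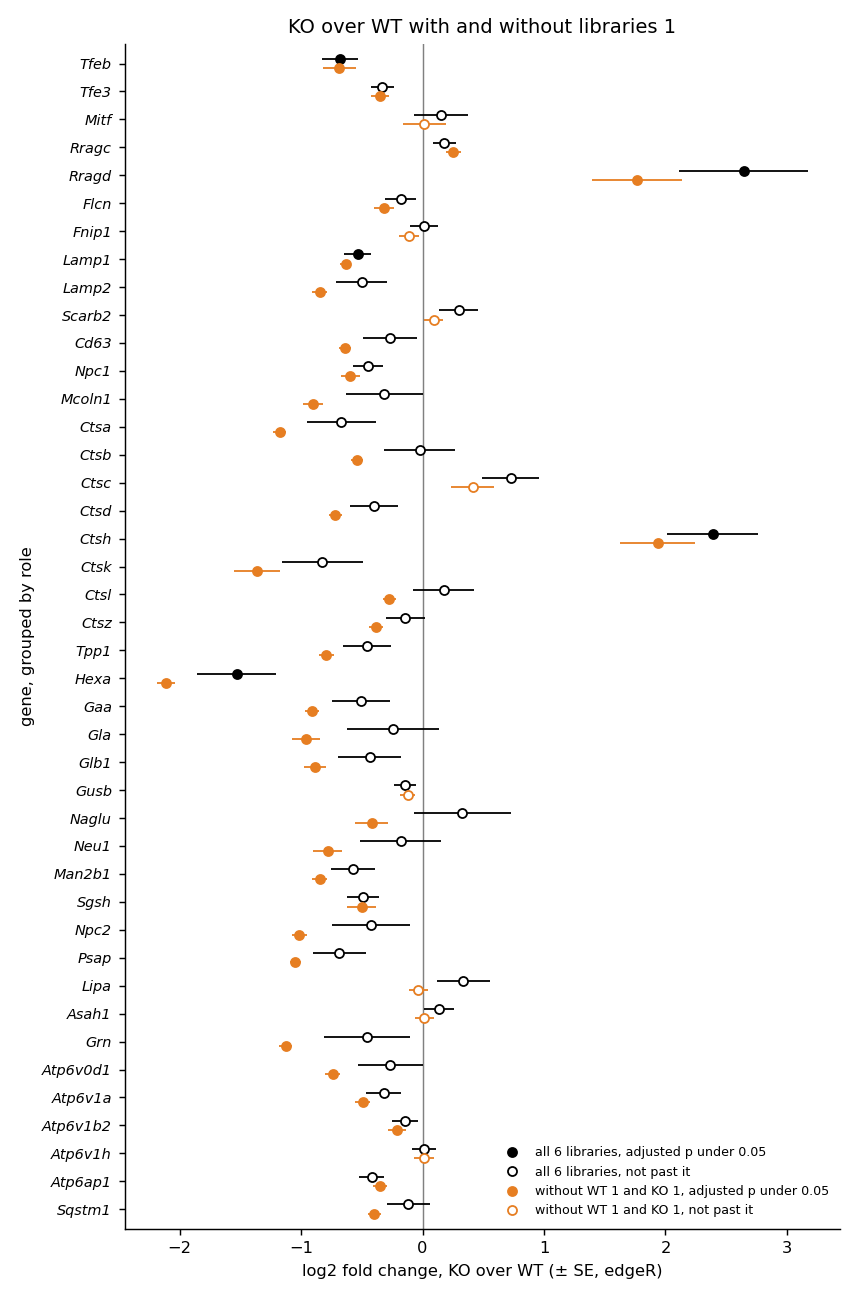
Log2 fold change (KO over WT, ± SE, edgeR) of each of the 42 genes with all 6 libraries (black) and without KO 1 and WT 1 (orange); filled points have an adjusted p under 0.05. With all libraries 5 points are filled, and without these 2 there are 34, most of them negative. Over all genes, 7.4% were called with all libraries and 48.0% without these 2.

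Other genes of the pathway were taken from lists of 129 genes in 6 roles, of which 123 were tested. In all, 2 were called higher and 3 lower, with Ppme1 itself among those lower, against 3.55% and 3.86% of all genes, and their median log2 fold change was -0.15. DESeq2 called 6 higher and 10 lower, and edgeR without KO 1 and WT 1 called 9 higher and 64 lower, to be read against the shares of all genes given above for those comparisons. Of 32 other lysosomal hydrolases tested, 0 were called by edgeR, 1 by DESeq2 and 0 by limma-voom, 4 had a p under 0.05 before adjustment, and 24 of 32 were of the crossed kind. Without KO 1 and WT 1, 25 of the 32 were called lower and 0 higher. Of 14 other proton pump subunits edgeR called 0, DESeq2 3 and limma-voom 0, and 4 had a p under 0.05 before adjustment. Without KO 1 and WT 1, 3 of them were called higher and 6 lower. The macrophage cathepsin gene Ctss and the pump genes Atp6v0d2 and Atp6v1b1, known from osteoclasts and kidney, had 0 counts in all libraries. Among 24 other membrane proteins and transporters Clcn7, the chloride-proton exchanger, fell 1.36-fold. It was at 57.7, 61.5 and 60.8 CPM in KO 1, KO 2 and KO 3, against 77.6, 80.3 and 86.1 CPM in WT 1, WT 2 and WT 3, with no overlap (log2 fold change -0.44, SE 0.10, adjusted p = 0.0412). Without KO 1 and WT 1, 12 of these 24 were called lower and 0 higher. Among 25 genes of mTORC1 and its lysosomal regulators, Rragb alone passed in edgeR and in limma-voom. DESeq2 called 2 higher (Rraga and Rragb) and 3 lower (Fnip2, Nprl2 and Sesn1), and edgeR without KO 1 and WT 1 called 2 higher and 10 lower. Of 12 genes that sort hydrolases, the sortilin gene Sort1 rose 2.32-fold. Its level was 27.6, 28.5 and 28.6 CPM in KO 1, KO 2 and KO 3, against 7.49, 13.3 and 15.6 CPM in WT 1, WT 2 and WT 3, again without overlap (log2 fold change 1.22, SE 0.27, adjusted p = 0.0425). The mannose 6-phosphate receptor genes M6pr and Igf2r had log2 fold changes of 0.03 and -0.54 (adjusted p = 0.885 and 0.058). Igf2r was called by DESeq2 (adjusted p = 0.00365) and by edgeR without KO 1 and WT 1 (0.000417). In that setting 2 of the 12 were called higher and 6 lower.

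Among 16 kinases and phosphatases known to act on TFEB or on PP2A methylation, 2 fell, with the targeted gene Ppme1 among them. Over all genes 3.86% were called lower. Without KO 1 and WT 1 edgeR called 2 of the 16 higher and 5 lower. In that setting 23.3% of all genes were called higher and 24.6% lower. The 2 that fell were Ppme1 and Gsk3b, a kinase that phosphorylates TFEB, at 101, 129 and 111 CPM in KO 1, KO 2 and KO 3, against 175, 158 and 169.7 CPM in WT 1, WT 2 and WT 3 (log2 fold change -0.56, SE 0.12, adjusted p = 0.0422). The PP2A catalytic subunit genes Ppp2ca and Ppp2cb had log2 fold changes of 0.04 and -0.03, with standard errors of 0.10 and 0.13 (adjusted p = 0.865 and 0.916). The scaffold gene Ppp2r1a was at -0.06 (0.802). The 2 called higher without KO 1 and WT 1 were the PP2A scaffold gene Ppp2r1b and regulatory subunit gene Ppp2r2a. In that setting they had log2 fold changes of 0.88 and 0.54 (edgeR adjusted p = 3.84e-05 and 2.57e-05). With all libraries these were 0.56 and 0.23 (0.189 and 0.576). Ppp3ca, a catalytic subunit of calcineurin, was at 82.3, 60.1 and 49.6 CPM in KO 1, KO 2 and KO 3, against 75.5, 122 and 145 CPM in WT 1, WT 2 and WT 3 and did not pass (log2 fold change -0.83, SE 0.28, adjusted p = 0.14). It was called by DESeq2 (adjusted p = 0.0463) and by edgeR without KO 1 and WT 1 (4.31e-05, log2 fold change -1.28). The calls on Clcn7, Sort1 and Gsk3b were each lost without KO 1 (adjusted p = 0.057, 0.0682 and 0.0556), KO 2 (0.128, 0.129 and 0.0658), KO 3 (0.153, 0.138 and 0.158), WT 2 (0.152, 0.13 and 0.121) or WT 3 (0.179, 0.0734 and 0.165) by edgeR. Without WT 1, Clcn7 (0.0448) and Sort1 (0.0153) were still called and Gsk3b (0.0658) was not. With upper-quartile factors, library size alone or no filter on low counts the adjusted p of Clcn7 was 0.06, 0.0698 and 0.0536, and with library size alone that of Sort1 was 0.0501.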

How the data were processed

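RNA of 3 PME-1 KO and 3 WT libraries of immortalized MEFs was made into directional libraries, per the labels' protocols. Each deposited file holds unnormalized whole-number counts for 53762 gene symbols. Reads were handled with Trim Galore 0.6.6 and HISAT2 2.2.1, per the submitters' processing notes. Those notes name a human build, while the symbols are those of mouse. How reads were counted, with which annotation and strand setting, is not given in the sources used here. Positions and exon lengths come from GENCODE M21 (GRCm38), in which 92.7% of the symbols had 1 entry.

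The test was edgeR's quasi-likelihood test (edgeR 4.0.16, R 4.3.3) after filterByExpr and TMM scaling. P-values of all 15223 genes kept were adjusted together by Benjamini-Hochberg, and calls have an adjusted p under 0.05. SE is the log2 fold change divided by the square root of F. Levels per kb are CPM divided by exon length. Differences between single libraries use log2 CPM with a prior count of 2. The test was checked on simulated counts. Alternatives were DESeq2 1.42.0, limma-voom (limma 3.58.1), other scaling factors and filters, a test against a 1.5-fold change, the replicate number as a block, and libraries left out. The members and lists were chosen with earlier results of these data known. Values in every library are given for members called, all regulators, the most abundant member of each role, and the members with the largest change among those called with DESeq2 or without KO 1 and WT 1; a few others were added after their values were seen. Floors cover counting error only.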

Additional observations from a re-analysis of the deposited data

How the results depend on the processing

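For the 42 members, median-ratio factors changed 0 calls, and 0 of the members called with all libraries turned direction in any setting. Against 2 members higher and 3 lower, the count of members was 3 higher and 8 lower with DESeq2, 1 higher with limma-voom, 0 higher among genes averaging 5 CPM or more (40 members, without Rragd and Ctsh), 0 lower with upper-quartile factors or library size alone, 1 higher and 0 lower in the test against a 1.5-fold change, and 31 lower without KO 1 and WT 1. Leaving out 1 library gave 0 to 2 higher and 0 to 4 lower. Leaving out the members on chromosome 9, or on chromosomes 9 and X (added after seeing the data), left 1 higher (Rragd), with Tfeb and Lamp1 still lower. Ctsl and Naglu turned to -0.27 and -0.42 without KO 1 and WT 1. The members' median log2 fold change was -0.52 in that setting, and -0.42 to -0.14 when 1 library was left out. The genes of the other lists, with the targeted gene Ppme1 among those lower, were 2 higher and 3 lower with all libraries. They numbered 6 and 10 with DESeq2, 1 higher with library size alone, and 9 and 64 without KO 1 and WT 1. When 1 library was left out they were 0 to 1 higher and 1 to 4 lower. In the test against a 1.5-fold change 0 were higher and 1 lower, and that 1 was Ppme1. Over all genes, 540 higher and 587 lower became 1195 and 1211 with DESeq2, 335 higher among genes averaging 5 CPM or more, 229 and 167 in the test against a 1.5-fold change, 3605 and 3803 without KO 1 and WT 1, and 170 to 556 and 162 to 660 when 1 library was left out. The cause of these differences was not tested. In the promoters, CACGTG was found for 14 members and TCACGTGA extended by a G before and a C after for 0, against 6 for TCACGTGA.

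Replicate numbers did not pair the libraries: same-numbered KO and WT libraries deviated from their group means with correlations of -0.512, -0.307 and -0.223. With the replicate number as a block, 0 members were called higher and 0 lower, and 0 and 0 genes of the other lists. Over all genes 3 were called higher and 5 lower in that setting. Rragd and Ctsh, at 0.58 to 1.96 CPM in WT, are the members that depth limits most.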
